A study of Mus musculus with 6 samples.

Results

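Proteasome transcripts were measured on arrays of CH12F3-2A, a B cell lymphoma line of the mouse that can switch from IgM to IgA. The members were the genes whose symbol begins with Psm, a letter from a to g and a number. They were 44 of the 15224 named genes tested, each with 1 probe and each tested. Of these, 40 were listed under such a symbol and 4 matched after older symbols were updated (Psmg1, Psmg2, Psmg3 and Psme3ip1). The match by name also took in 2 genes that are not proteasome subunits or assembly factors, Psmc3ip and Psme3ip1, which left 42 proteasome genes.

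All cells received an siRNA by electroporation, were cultured for 24 h, and were then stimulated for 24 h with CD40 ligand, interleukin 4 and TGF-beta (CIT). The control samples received a control siRNA (siControl, 3 samples) and the others an siRNA against Spt6 (siSpt6, 3 samples), a histone chaperone of elongating RNA polymerase II encoded by Supt6. Cy5-labelled RNA of each sample was hybridised to 1 array in a single colour. Separate cultures are not stated for the samples of a group, so the p-values rest on a spread between samples that may be technical. In such bulk RNA, fewer cells and less RNA per cell cannot be told apart. The labels give 2-mercaptoethanol in micromolar units for siControl and in millimolar units for siSpt6, and do not say whether the groups were grown or hybridised together, so a difference in handling and the siRNA cannot be told apart.

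The proteasome is the cell's main protease for proteins tagged with ubiquitin. Its 20S core is a barrel of alpha rings, which gate the entry, and beta rings, which carry the cutting sites. The 19S particle caps the core: receptors in it bind ubiquitin chains, its lid removes them, and its ATPase ring unfolds the substrate. In B cells and other immune cells, the immunoproteasome subunits Psmb8, Psmb9 and Psmb10 replace the cutting subunits Psmb5, Psmb6 and Psmb7, and the peptides it makes are loaded on MHC class I molecules.

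The siRNA's target was read by 1 probe, at 33.1, 32.1 and 32.1 in siControl and 25.1, 21.8 and 28.1 in siSpt6 (intensity in arbitrary units). The log2 difference was -0.38 (SE 0.13) and did not pass the threshold as deposited (limma adjusted p = 0.0973), so the arrays alone do not establish the knockdown. Between 21526 and 22372 probes had a value on an array, and the array medians differed by at most 0.00109 on the log2 scale. Of 9 measured B cell markers, 7 had probes among the brightest 25% of those tested, and 0 of 5 T cell markers and 0 of 5 myeloid markers did. None of the T cell and myeloid markers was called in either direction, while 2 B cell markers were called higher and 1 lower. These were Cd79b (log2 0.55), Blk (0.72) and Cd22 (-0.62; limma adjusted p = 0.0391, 0.0393 and 0.0281), each call lost without 5 of the 6 arrays in turn, and their part in the proteasome results was not tested. Precision is limited by having 3 arrays in a group.

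In the deposited values 13 of 44 members (29.5%) were called lower in siSpt6 and 0 higher (limma, Benjamini-Hochberg adjusted p under 0.05 over all 21584 probes). Over all genes 9.65% were called lower and 7.40% higher. The 13 were 12 proteasome genes and Psmc3ip. The median log2 difference of the 42 proteasome genes was -0.37, beside 0.01 over all tested probes, and 36 of the 42 lay below 0. In 31 of the 44 members (70.5%) every siSpt6 value was below every siControl value, against 20.4% of all probes with 6 values, and 0 members had the reverse, which 16.9% of all such probes had.

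Probe brightness moved with this result. Most members were bright, with 36 of 44 among the brightest 10% of tested probes. In that class the median log2 difference was -0.26, 27.1% of probes were called lower and 48.3% of those with 6 values had siSpt6 wholly below siControl. The members' share of 29.5% called lower is therefore close to that of the bright class, which includes most members. Their share with siSpt6 wholly below siControl, 70.5%, was above 48.3%, and their median of -0.37 was below -0.26. These differences were not tested. Quantile normalization makes the arrays' intensity distributions alike, and cyclic loess removes differences between arrays that depend on intensity. They brought the 42-gene median to -0.13 and -0.15. Under either of them 5 of 44 members (11.4%) were called lower, beside 10.7% of the brightest class after quantile normalization and 12.3% after cyclic loess. What the trend with brightness comes from was not tested.

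**Figure D1:**
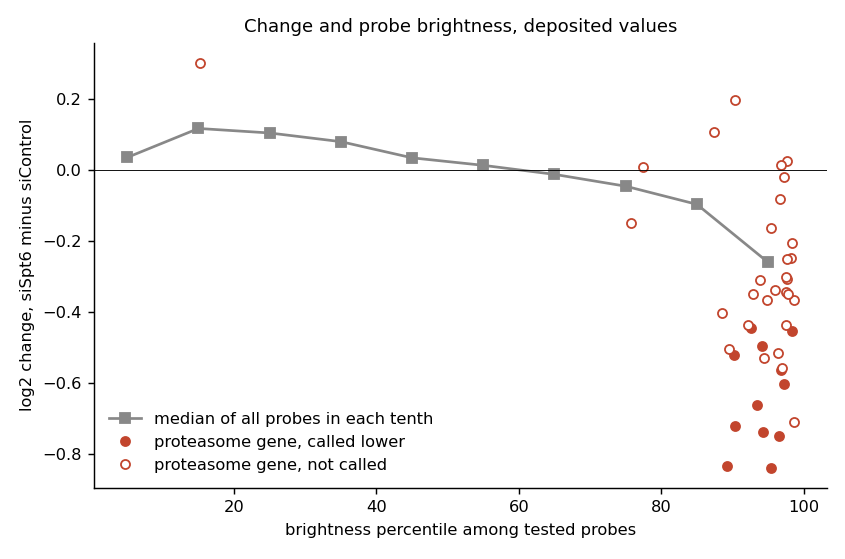
Log2 difference of each proteasome gene, siSpt6 minus siControl, against the brightness percentile of its probe among tested probes. Filled points passed the threshold, open points did not, and squares are the medians of all probes in each 10% step of brightness. The squares fall to -0.26 in the brightest step, where 35 of the 42 genes lie, and genes are found on both sides of that value.

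The falls that held in the deposited values and after both normalizations were 3 subunits of the 19S lid, Psmd7, Psmd11 and Psmd3, and the assembly chaperone Psmg2. They and Psmc3ip were the 5 members called lower both after quantile normalization and after cyclic loess, and these 5 also kept their calls when any 1 array was left out. The other 8 members called lower were not called after either normalization, and each lost its call without at least 5 of the 6 arrays in turn. The plot of called members by array shows the siSpt6 arrays of all 12 proteasome genes below the controls.

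**Figure D2:**
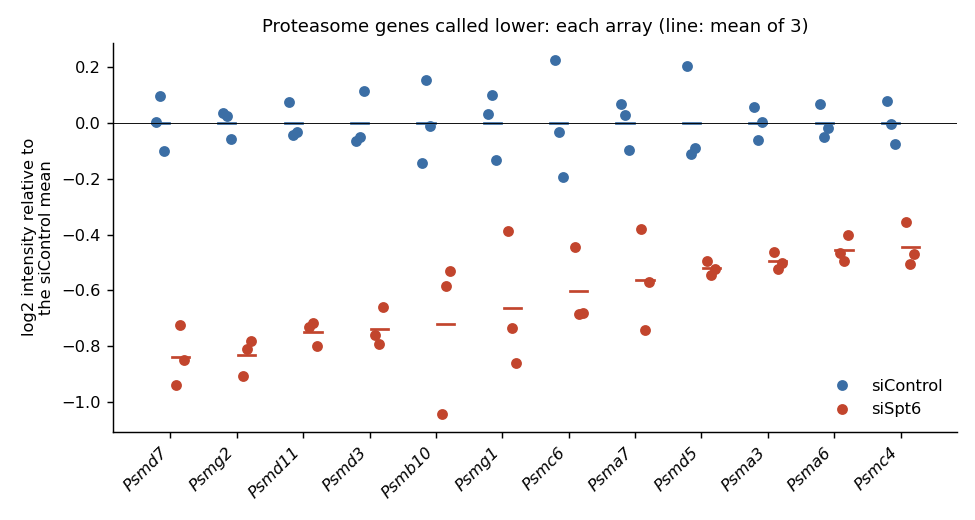
Log2 intensity of the 12 proteasome genes called lower, on each array, relative to the gene's siControl mean. Points are single arrays, lines the means of 3, and genes run from the largest to the smallest fall. All siSpt6 points lie below all siControl points for each gene; Psmb10 has the widest siSpt6 spread on this scale, and Psma3 and Psmd5 have narrow ones.

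Among lid subunits, Psmd7 had the largest fall of any member. Psmd7, encoded on chromosome 8, forms a pair with the deubiquitinase subunit Psmd14. It read 1704, 1817 and 1583 in siControl and 886, 1027 and 943 in siSpt6. Every siSpt6 value was thus below every siControl value, and the means were 1701 ± 117 and 952 ± 70.9 (intensity ± SD, n = 3 each). The level was 1.79-fold lower, a log2 difference of -0.84 (SE 0.12, limma adjusted p = 0.00601), and -0.58 and -0.62 after quantile normalization and cyclic loess (limma adjusted p = 0.0193 and 0.0158).

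Psmd11, on chromosome 11, bridges the lid, the ATPase ring and the 20S core. It read 2351, 2169 and 2187 in siControl and 1347, 1358 and 1282 in siSpt6. The siSpt6 arrays lay close together and far below the controls, a 1.68-fold lower level (log2 -0.75, SE 0.11, limma adjusted p = 0.00601). After quantile normalization and cyclic loess its log2 difference was -0.47 and -0.51 (limma adjusted p = 0.0373 and 0.0245).

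Psmd3, a scaffold subunit of the lid also encoded on chromosome 11, read 1245, 1257 and 1407 in siControl and 768, 751 and 823 in siSpt6. The groups did not overlap, and the level was 1.67-fold lower (log2 -0.74, SE 0.12, limma adjusted p = 0.00766). It kept its call after quantile normalization (log2 -0.51, limma adjusted p = 0.0292) and cyclic loess (log2 -0.53, limma adjusted p = 0.0224).

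The 8 lid subunits with a Psmd name all had probes in the brightest class. Of that class 27.1% were called lower as deposited, 10.7% after quantile normalization and 12.3% after cyclic loess. Whether the lid differed from these shares was not tested. Of the 8 subunits 3 fell and 5 did not pass the test, and those 5 were singled out after their values were seen. The small lid subunit Sem1, which the match by name does not take in, did not pass either. Its log2 difference was 0.11 (SE 0.12) with overlapping groups, and 0.42 after quantile normalization (limma adjusted p = 0.609 and 0.0698). Psmd12 and Psmd6, further scaffold subunits, had siSpt6 values wholly below siControl (log2 -0.53 and -0.35) without passing (limma adjusted p = 0.0943 and 0.155). Psmd14, the deubiquitinase and partner of Psmd7, read 1897, 1878 and 1673 in siControl and 1730, 1611 and 1805 in siSpt6. Its groups overlapped, with a log2 difference of -0.08 (SE 0.12). Psmd8 was at -0.02 (SE 0.12), and Psmd13 was at 0.20 (SE 0.12), with groups that overlapped in both. After quantile normalization the log2 differences of Psmd14, Psmd8 and Psmd13 were 0.22, 0.28 and 0.38, none past the threshold. Whether Psmd7 changed more than Psmd14 was not tested.

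The ATPases form the ring that pulls substrates into the core. Of the 6 ATPases, 2 fell, and all 6 had siSpt6 values wholly below siControl, with log2 differences from -0.60 to -0.30. Their 6 probes were all in the brightest class, where 27.1% of probes were called lower as deposited. In that class 48.3% of probes with 6 values had siSpt6 wholly below siControl. Whether the ATPases differed from those shares was not tested. Psmc6 read 2979, 2495 and 2231 in siControl and 1872, 1587 and 1591 in siSpt6, 1.52-fold lower (log2 -0.60, SE 0.15, limma adjusted p = 0.0381). Psmc4 read 938, 885 and 843 against 694, 625 and 641, 1.36-fold lower (log2 -0.44, SE 0.11, limma adjusted p = 0.0408). The siSpt6 values of both genes sat below the lowest control. Neither passed after quantile normalization (limma adjusted p = 0.205 for Psmc6 and 0.219 for Psmc4) or cyclic loess (0.162 and 0.172).

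Psmc6 was called without siControl replicate 3 (limma adjusted p = 0.0412) and lost its call without any other array, up to limma adjusted p = 0.107. Psmc4 lost its call without any 1 array, up to limma adjusted p = 0.120. Psmc1, Psmc2, Psmc3 and Psmc5 did not pass, with log2 differences of -0.51, -0.44, -0.30 and -0.34. The scaffold subunits Psmd1 and Psmd2 and the ubiquitin receptor Psmd4 did not pass either, at -0.37, -0.31 and -0.16.

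**Figure D3:**
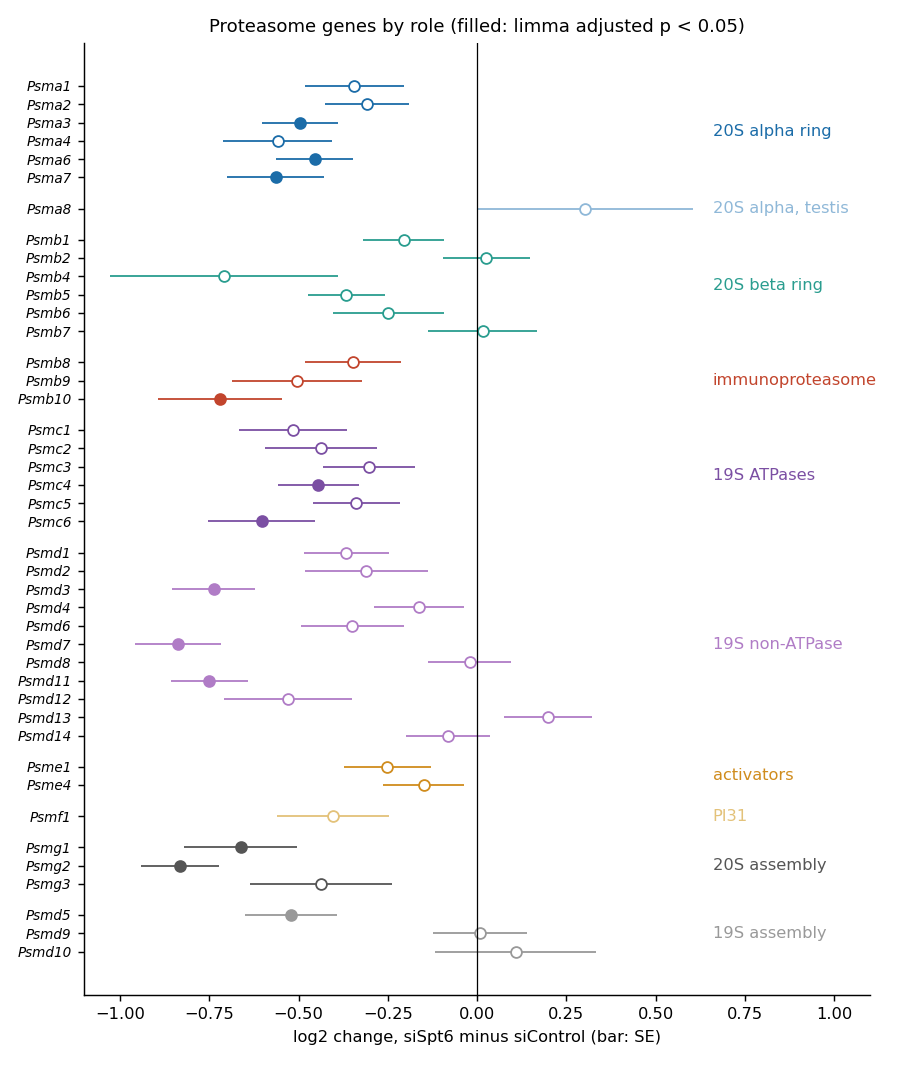
Log2 difference, siSpt6 minus siControl, of the 42 proteasome genes by role, with its standard error; filled points passed the threshold in the deposited values. Falls past the threshold are found in the alpha ring (3 of 6), the immunoproteasome (1 of 3), the 19S ATPases (2 of 6), the other 19S subunits (3 of 11) and the assembly chaperones (3 of 6), and in neither the constitutive beta ring (0 of 6) nor the activators. In the brightest class, which held 35 of the 42 probes, 27.1% of probes were called lower in the deposited values. After either normalization the calls left were 3 of the other 19S subunits and 1 assembly chaperone. Differences between roles were not tested. Quantile normalization turned the sign of 1 alpha, 2 beta, 1 ATPase, 3 non-ATPase and 1 activator gene, none of which passed.

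In the 20S core, 12 of 13 genes had probes in the brightest class, where 27.1% of probes were called lower as deposited. Of the 13 genes 3 fell (23.1%) and 0 rose, and a difference from that share was not tested. All 3 were alpha subunits: of the 6 measured genes of the constitutive alpha ring, all had siSpt6 values wholly below siControl. All 6 probes were in the brightest class of tested probes, where 48.3% of those with 6 values separated in this way. A difference from that share was not tested. Psma3 read 1231, 1132 and 1184 in siControl and 857, 822 and 835 in siSpt6. It was 1.41-fold lower (log2 -0.50, SE 0.11, limma adjusted p = 0.0234), and replicates of a group differed little. Psma6 read 5362, 4932 and 5047 against 3695, 3630 and 3866, 1.37-fold lower (log2 -0.45, SE 0.11, limma adjusted p = 0.0326). Psma7 read 2319, 2255 and 2070 against 1698, 1322 and 1490, 1.48-fold lower (log2 -0.56, SE 0.14, limma adjusted p = 0.0333). For each of these subunits the highest siSpt6 array was below the lowest control.

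None of these 3 alpha calls held after quantile normalization (limma adjusted p = 0.159 for Psma3, 0.469 for Psma6 and 0.239 for Psma7) or cyclic loess (0.119, 0.406 and 0.148). Psma7 kept its call without siSpt6 replicate 1 (limma adjusted p = 0.0384) and lost it without any other array. Psma3 and Psma6 lost theirs without any 1 array, up to limma adjusted p = 0.0791 and 0.102. Psma4 lay just outside the threshold (log2 -0.56, limma adjusted p = 0.0501), and Psma1 and Psma2 did not pass, at -0.34 and -0.31. Psma8, an alpha subunit of the testis, was read by a very dim probe (3.09 to 6.49) with overlapping groups.

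Of 6 measured constitutive beta subunits 0 passed, with a median log2 difference of -0.23 that became 0.08 after quantile normalization and 0.07 after cyclic loess. All 6 probes were in the brightest class, where 27.1% of probes were called lower as deposited, and a difference from that share was not tested. Psmb1 was at -0.21, with groups that did not overlap. Psmb2 was at 0.03, with groups that did. Psmb4 had the largest difference of the 6 (log2 -0.71, SE 0.32) and was the least even. It read 5620, 4695 and 2300 in siSpt6, so that 1 array lay far below the others, and it did not pass (limma adjusted p = 0.192).

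The cutting subunits were compared with their immunoproteasome replacements. Psmb5, with the chymotrypsin-like site, read 5738, 6215 and 6174 in siControl and 4570, 4635 and 4853 in siSpt6 (log2 -0.37, SE 0.11, limma adjusted p = 0.0640). Psmb6, with the caspase-like site, read 4703, 3587 and 3382 against 3233, 3426 and 3073 (log2 -0.25, SE 0.16, limma adjusted p = 0.342). Psmb7, with the trypsin-like site, read 1771, 1952 and 1682 against 1919, 2060 and 1517 (log2 0.02, SE 0.15, limma adjusted p = 0.963). The groups were apart for Psmb5 and overlapped for Psmb6 and Psmb7.

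Of the immunoproteasome subunits, 1 of 3 fell. Over all genes 9.65% were called lower, and 27.1% of probes in the brightest class, which held 2 of the 3. A difference from these shares was not tested. Psmb10, the replacement of Psmb7, read 669, 823 and 735 in siControl and 359, 493 and 512 in siSpt6. It was 1.65-fold lower (log2 -0.72, SE 0.17, limma adjusted p = 0.0341), with the widest siSpt6 spread of the 12 genes on the log2 scale. Its call did not hold after quantile normalization (log2 -0.54, limma adjusted p = 0.0727) or cyclic loess (log2 -0.56, limma adjusted p = 0.0673). Without siSpt6 replicate 3 it stood at limma adjusted p = 0.0467, and without each other array it was lost, up to 0.0977.

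Psmb8, the replacement of Psmb5, read 3342, 3058 and 3240 in siControl and 2923, 2319 and 2368 in siSpt6 (log2 -0.35, SE 0.13, limma adjusted p = 0.133). Psmb9, the replacement of Psmb6, read 517, 597 and 795 against 454, 398 and 477 (log2 -0.50, SE 0.18, limma adjusted p = 0.114). In both, the siSpt6 values lay wholly below the controls, and in Psmb9 the controls were widely spread. Of all probes with 6 values 20.4% had siSpt6 wholly below siControl, and 48.3% of those in the brightest class, which held Psmb8.

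Setting each subunit against its counterpart within an array removes a shift shared by the pair. The log2 ratio of Psmb10 to Psmb7 was -1.28 ± 0.11 in siControl and -2.02 ± 0.43 in siSpt6 (SD, n = 3 each), a difference of -0.74 with groups that did not overlap (two-sided exact permutation test, p = 0.1, which is the smallest p that 3 against 3 arrays allow, 0.3 adjusted over the 3 pairs). Psmb9 against Psmb6 differed by -0.26 and Psmb8 against Psmb5 by 0.02, with overlapping groups (exact p = 0.5 and 0.9, adjusted 0.75 and 0.9). The difference of Psmb10 against Psmb7 was -0.84 after quantile normalization and -0.82 after cyclic loess. With 3 arrays in a group the test could not pass 0.05 for any pair, so an unequal change was not shown, and the ratios say nothing of which subunit is more abundant.

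**Figure D4:**
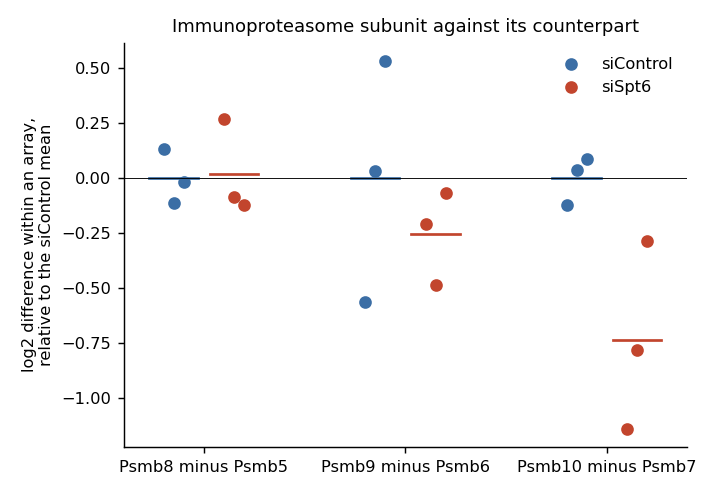
Log2 difference between an immunoproteasome subunit and the constitutive subunit it replaces, within each array and relative to the siControl mean of the pair. Points are arrays and lines the means of 3. The groups are apart for Psmb10 minus Psmb7, by -0.74, and overlap for both other pairs.

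The activators open the core without ATP, and none of them passed. Psme1, a subunit of the interferon-induced activator PA28, read 2919, 2691 and 2501 in siControl and 2215, 2150 and 2446 in siSpt6 (log2 -0.25, SE 0.12, limma adjusted p = 0.221). Its difference had the other sign after quantile normalization (0.07) and cyclic loess (0.02). Psme4, the nuclear activator PA200, read 192, 167 and 183 against 161, 166 and 161 (log2 -0.15, SE 0.11, limma adjusted p = 0.429). Psmf1, the regulator PI31, read 540, 610 and 511 against 347, 475 and 440 (log2 -0.40, SE 0.16, limma adjusted p = 0.137). In all 3 the siSpt6 values lay below the controls in the deposited scaling. So did 20.4% of all probes with 6 values and 48.3% of those in the brightest class, which held 1 of the 3. A difference from these shares was not tested. Psme2 and Psme3 had no named probe and are not analysed here, nor are Psma5, Psmb3, Psmb11 and Psmg4.

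Assembly chaperones held the second largest fall of the members. Psmg2, which pairs with Psmg1 to build the alpha ring, read 696, 691 and 652 in siControl and 362, 388 and 396 in siSpt6. It was 1.78-fold lower with little spread (log2 -0.83, SE 0.11, limma adjusted p = 0.00433), and -0.66 and -0.68 after quantile normalization and cyclic loess (limma adjusted p = 0.00875 and 0.00717). Its partner Psmg1 read 1114, 1168 and 993 against 832, 654 and 600, 1.58-fold lower (log2 -0.66, SE 0.16, limma adjusted p = 0.0326). Both were lower on every siSpt6 array than on any control. Psmg1 did not pass after quantile normalization (limma adjusted p = 0.127) or cyclic loess (0.102), and its call was lost without any 1 of 5 arrays, all but siSpt6 replicate 1 (limma adjusted p up to 0.0955).

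Psmg3 had overlapping groups (log2 -0.44, SE 0.20). Of the chaperones of the ATPase ring, Psmd5 read 785, 631 and 640 against 484, 468 and 474, 1.43-fold lower (log2 -0.52, SE 0.13, limma adjusted p = 0.0372). Its siSpt6 arrays lay close together. The call did not hold after quantile normalization (limma adjusted p = 0.140), cyclic loess (0.109) or without any 1 array (up to 0.0992). Psmd9 and Psmd10, which act on the same ring, were at 0.01 and 0.11 with overlapping groups.

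The 2 genes matched by name alone differed from each other. Psmc3ip, a partner of the meiotic recombinases that was named for binding an ATPase subunit, read 443, 478 and 401 in siControl and 263, 255 and 264 in siSpt6. It was 1.69-fold lower (log2 -0.75, SE 0.12, limma adjusted p = 0.0076), also after quantile normalization and cyclic loess (limma adjusted p = 0.0146 and 0.0119). Psme3ip1 was at 0.02, with groups that overlapped.

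**Figure D5:**
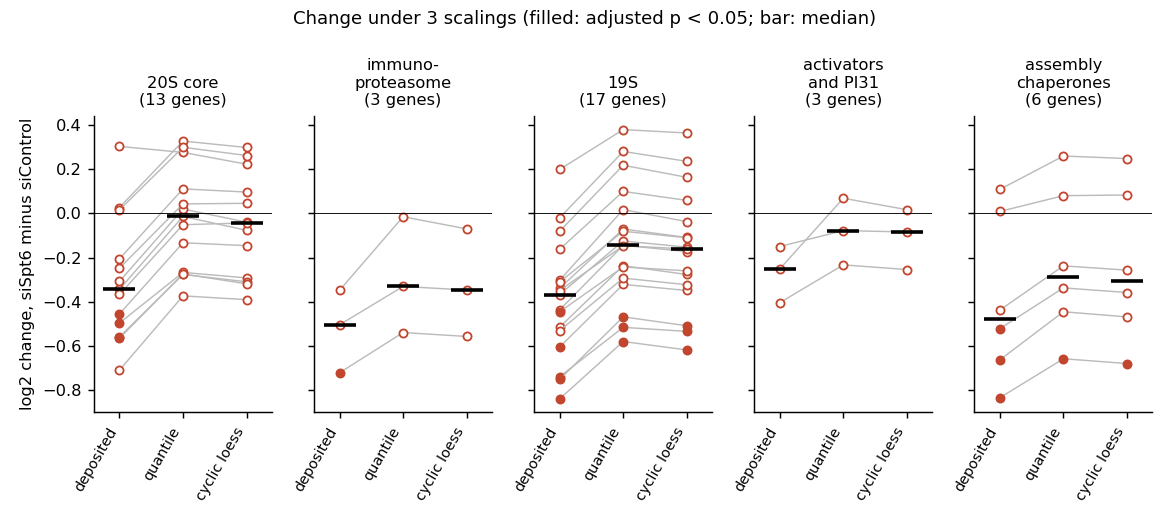
Log2 difference of each proteasome gene in the deposited values, after quantile normalization and after cyclic loess, by class. Lines join a gene, filled points passed the threshold and bars are class medians. The 20S core median moves from -0.34 to -0.01 and -0.04, and the 19S median from -0.37 to -0.14 and -0.16; 3 19S genes and 1 assembly chaperone stay filled throughout.

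Across the classes, the median log2 difference was -0.34 for the 20S core (13 genes), -0.37 for the 19S particle (17), -0.50 for the immunoproteasome subunits (3), -0.25 for the activators with PI31 (3) and -0.48 for the assembly chaperones (6). After quantile normalization the 20S core stood at -0.01, the 19S particle at -0.14, the activators at -0.08, the immunoproteasome subunits at -0.33 and the assembly chaperones at -0.29. The 20S core probes were the brightest, with a median brightness percentile of 97.6, against 95.4 for the 19S particle, 90.3 for the immunoproteasome, 89.7 for the chaperones and 88.6 for the activators with PI31. A difference between classes was not tested.

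Upstream of 34 proteasome genes, RefSeq windows of the 250 bases before the gene's start (mouse assembly GRCm38.p6) were searched on both strands for motifs of factors known to act on these genes. TGACNNNGC is the core of the antioxidant response element, bound by Nfe2l1 and Nfe2l2. It was found in 5 of 34 genes (14.7%), against 10.2% of 32841 windows, in 1 of 9 genes called lower and in 4 of 25 others. CCAAT, the box bound by NF-Y, was found in 11 of 34 (32.4%), against 33.9% of all windows. The core of the interferon-stimulated response element, GAAA, any 2 bases and GAAA, was found in 2 of 34 genes against 2.98% of windows, and in 0 of 9 called lower. A match describes letters only, and the shares were not tested. They are also unlike measures: a proteasome gene counted if any of its windows matched, while the comparison share counts single windows. Some genes, such as Psma6 and Psmc2, had more than 1 window. Of Psmd7, Psmd11, Psmd3 and Psmg2, Psmd11 had a window in the table used. Its window is shown with that of Psmc6, the only gene called lower that held the antioxidant response element core, and those of the cutting subunits Psmb5 and Psmb6, which held it and were not called. They lie at chr11:80428365-80428614 (plus strand), chr14:45329574-45329823 (plus), chr14:54617996-54618245 (minus) and chr11:70525107-70525356 (plus). Each is written 5′ to 3′ along the gene, and capitals mark the element core, which begins 227 bases before the start in Psmc6 (on the opposite strand), 47 in Psmb5 and 9 in Psmb6:
Psmd11: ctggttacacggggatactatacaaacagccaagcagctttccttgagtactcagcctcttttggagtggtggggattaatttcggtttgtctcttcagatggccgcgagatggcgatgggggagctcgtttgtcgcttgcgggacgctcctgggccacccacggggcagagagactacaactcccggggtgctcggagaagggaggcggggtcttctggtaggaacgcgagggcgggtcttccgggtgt
Psmc6: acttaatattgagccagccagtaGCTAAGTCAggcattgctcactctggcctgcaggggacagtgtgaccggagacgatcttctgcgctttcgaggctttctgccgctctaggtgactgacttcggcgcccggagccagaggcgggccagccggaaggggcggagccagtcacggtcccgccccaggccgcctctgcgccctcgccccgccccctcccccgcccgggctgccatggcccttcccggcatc
Psmb5: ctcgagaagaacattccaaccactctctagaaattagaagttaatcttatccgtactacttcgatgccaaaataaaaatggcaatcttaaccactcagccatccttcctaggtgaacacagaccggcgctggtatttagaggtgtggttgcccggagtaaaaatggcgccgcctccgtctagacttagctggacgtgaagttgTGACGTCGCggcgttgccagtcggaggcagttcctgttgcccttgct
Psmb6: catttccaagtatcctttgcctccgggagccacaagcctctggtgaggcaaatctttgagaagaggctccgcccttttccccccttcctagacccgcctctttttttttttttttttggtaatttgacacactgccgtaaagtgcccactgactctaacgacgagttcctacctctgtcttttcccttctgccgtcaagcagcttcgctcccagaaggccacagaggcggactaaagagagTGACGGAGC

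Proteins that work with the proteasome under other names were tested alongside. Of 11 partners measured, 2 fell (18.2%) and 1 rose, and their median log2 difference was -0.14. Over all genes 9.65% were called lower and 7.40% higher. Among the brightest 10% of probes, which held 7 of the 11 partners, 27.1% were called lower. Uchl5, a deubiquitinase docked on the 19S particle, read 1356, 1299 and 1195 in siControl and 813, 839 and 614 in siSpt6. It was 1.71-fold lower without overlap (log2 -0.78, SE 0.16, limma adjusted p = 0.0179). Txnl1, a thioredoxin-like protein bound to the 19S particle, fell by 0.51 on the log2 scale (limma adjusted p = 0.0410). Zfand5, a zinc finger protein that stimulates the proteasome, rose by 0.48 (limma adjusted p = 0.0451). After quantile normalization Uchl5 and Txnl1 did not pass (limma adjusted p = 0.0723 and 0.249) and Zfand5 did (0.0234). The call of Zfand5 was lost without any 1 array, that of Txnl1 without 5 of the 6 and that of Uchl5 without 2 (limma adjusted p up to 0.124, 0.114 and 0.0594).

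Adrm1, the ubiquitin receptor on which Uchl5 docks, was at -0.45 with groups that did not overlap (limma adjusted p = 0.101). Pomp, the chaperone that matures the 20S core, read 1713, 1795 and 1894 in siControl and 1783, 1722 and 1900 in siSpt6. Its groups overlapped (SE of the log2 difference 0.11, limma adjusted p = 0.997).

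Of 8 genes of the Nfe2l1 axis, which raises proteasome genes when proteolysis is short, 1 rose and 0 fell. Over all genes 7.40% were called higher and 9.65% lower. Nfe2l2, the related factor of the antioxidant response, read 321, 331 and 308 in siControl and 431, 503 and 524 in siSpt6. It rose by 0.60 on the log2 scale (SE 0.12, limma adjusted p = 0.0200), a call that held after quantile normalization (0.00849) and cyclic loess (0.00792) and was lost without any 1 of 5 arrays (up to 0.0664). Nfe2l1 itself read 276, 272 and 382 against 199, 205 and 243 and did not pass (log2 -0.51, limma adjusted p = 0.0941), although all siSpt6 values were below the controls. With the trend and robust options of eBayes 3 of the 8 were called lower, Nfe2l1 and the small Maf partners Mafg and Maff (limma adjusted p = 0.0310, 0.0166 and 0.0475). Nfe2l1 was also called with the replicate block (limma adjusted p = 0.0424) and Mafg with array weights (0.0483). Mafg and Maff were named after their values were seen.

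Of 7 ubiquitin shuttles and p97 genes 1 fell (14.3%), against 9.65% of all genes. Rad23b, which carries ubiquitinated proteins to the proteasome, read 250, 248 and 230 in siControl and 152, 151 and 146 in siSpt6. It was 1.62-fold lower in tightly grouped replicates (log2 -0.70, SE 0.11, limma adjusted p = 0.00743), and kept its call after quantile normalization (limma adjusted p = 0.0131), after cyclic loess (0.0120) and without any 1 array (up to 0.0311). Of 2 measured ubiquitin-activating enzymes 0 passed.

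MHC class I loading takes up the immunoproteasome's products. Of 8 measured genes of MHC class I peptide loading 0 passed in either direction (2 had an unadjusted p under 0.05), and their median was -0.10. The median was 0.07 after quantile normalization and 0.04 after cyclic loess. As deposited, 2 of the 8 had siSpt6 wholly below siControl and 2 wholly above, against 20.4% and 16.9% of all probes with 6 values. Tap1, the peptide transporter subunit whose gene neighbours Psmb9, read 126, 119 and 133 in siControl and 112, 96.0 and 115 in siSpt6 (log2 -0.23, SE 0.13, limma adjusted p = 0.285). Irf1, an interferon factor that induces immunoproteasome genes, read 107, 109 and 102 against 99.2, 93.2 and 97.1 (log2 -0.13, SE 0.11, limma adjusted p = 0.473). For Tap1 and Irf1 the siSpt6 values lay just below the controls. After quantile normalization and cyclic loess 1 of the 8 loading genes was called higher, the MHC class I light chain B2m (log2 0.50, limma adjusted p = 0.0298 and 0.0299), named after its value was seen.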

How the data were processed

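The authors deposited 1 linear intensity per probe and array, in arbitrary units. The labels' protocols name RNeasy purification, amplification to amino allyl RNA, Cy5 coupling and TORAY arrays. How background was corrected and how arrays were normalized is not given in the sources; array medians agreed within 0.00109 on the log2 scale, so the values seem already scaled to a common median. Blanks were taken as missing.

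Of 23473 probes 16631 had a gene symbol and 6842 had none; 3947 older symbols were updated through RefSeq names (GRCm38.p6). The deposited values were log2-transformed without a pseudocount and probes with at least 2 of 3 values in each group were fitted with the group as the only term (limma 3.58.1, lmFit and eBayes, R 4.3.3). Two-sided p-values over 21584 probes were given the Benjamini-Hochberg adjustment and called at 0.05. Folds compare geometric means, and means ± SD are of linear intensities. Brightness is the mean log2 intensity over all arrays.

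The members and gene lists were chosen with earlier results of these data known. Genes were named by a rule: all members called, the immunoproteasome subunits with their counterparts, the activators, Supt6, up to 4 called genes of each further list, and Nfe2l1, Pomp, Adrm1, Tap1 and Irf1; other members are named only to account for them. Per-array log2 ratios of 3 subunit pairs were compared by exact permutation over arrays. Alternatives were quantile normalization, cyclic loess, median centring, a restriction to bright or to complete probes, a pseudocount of 2.66, trend and robust options of eBayes, a replicate block, array weights, a threshold of 0.01 and each array left out in turn. Tested on simulated data of the same 21584 probes for siSpt6 against siControl, the fit recovered 53 of 66 changes of 4-fold. It recovered 19 of 67 of 2-fold and 2 of 67 of 1.5-fold. Far fewer probes were changed in the simulation than were called in the data, which makes the adjusted threshold stricter there. The shares therefore do not give how many changes of the size seen in proteasome genes were missed here. Promoter windows came from RefSeq, and 1911 of 1911 overlapping windows of opposite strands were reverse complements.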

Additional observations from a re-analysis of the deposited data

How the results depend on the processing

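Limits come first. The arrays give no background measure, brightness and fall are linked, and 3 arrays per group leave calls near the threshold unstable. Of 13 members called lower, 5 were called after quantile normalization and 5 after cyclic loess, the same 5 genes as without siControl replicate 1, siControl replicate 2 or siSpt6 replicate 2. The count was 23 with bright probes only, 21 with trend and robust options and 5 at a threshold of 0.01, and between 5 and 7 with 1 array left out. It stayed within 1.5 times under median centring, complete probes, the pseudocount and array weights, and 0 members were called higher under any setting. For the 19S particle (5 called) the count was 3 after quantile normalization, 3 after cyclic loess, 10 with bright probes only, 10 with trend and robust options, 3 at the threshold of 0.01, and 3 to 4 without 1 array. For the 20S core (3 called) it was 0 after quantile normalization, cyclic loess and at 0.01, 6 with bright probes only, 5 with the pseudocount, 5 with trend and robust options, and 0 to 1 without 1 array. For the immunoproteasome (1 called) it was 0 after quantile normalization, cyclic loess and at 0.01, 3 with bright probes only, 2 with trend and robust options, and 0 to 1 without 1 array. The median of the 42 genes moved from -0.37 to -0.13 (quantile) and -0.15 (cyclic loess). Bright probes only and the threshold change how many probes are tested or how many pass by construction; for the other settings the cause was not tested.

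Over all probes 3525 were called, 1354 at 0.01, and 2099 to 2522 with 1 array left out, the lowest without siControl replicate 1, with 2230 without siControl replicate 2, 2308 without siSpt6 replicate 1 and 2160 without siSpt6 replicate 2. The split of calls was 1603 higher and 1922 lower as deposited, 1853 and 1379 after quantile normalization, and 1808 and 1567 after cyclic loess. Supt6 passed only after cyclic loess (log2 -0.42, limma adjusted p = 0.0491). After quantile normalization 8 members that did not pass turned from below to above 0 (Psma2, Psmb1, Psmb6, Psmc3, Psmd4, Psmd8, Psmd14 and Psme1), and after cyclic loess all of these but Psma2 and Psmc3. Among the genes followed through every setting, signs turned for Psmb6 (0.042 quantile, 0.045 cyclic loess), Psme1 (0.068 and 0.016), Psmb7 (-0.076 to 0.145 without 1 array) and Pomp (-0.038 to 0.038). The ratio of Psmb8 to Psmb5 turned to -0.027 after cyclic loess and ranged from -0.11 to 0.089 without 1 array, and that of Psmb9 to Psmb6 ranged from -0.54 to 0.010.

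The replicate numbers are shared between groups, and arrays with the same number deviated together by correlations of 0.35, 0.08 and 0.26 for numbers 1, 2 and 3. Each array correlated best with its own number, and the correlations between numbers 1 and 3 were -0.29 and -0.26. Whether the samples share more than a number cannot be told, and the main fit leaves the number out. With the replicate block 15 members were called lower, and 3610 probes in all. The mean of a gene's probes changes nothing here, since each member has 1 probe.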
